A study of Mus musculus with 4 samples.

Results

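Imprinted genes are expressed mainly or only from the allele of one parent, and the 51 described here are the long-known ones of the mouse, in 19 chromosomal domains. Of these, 24 are known to be expressed from the maternal allele and 27 from the paternal allele. The genes were chosen by symbol, and a peak was counted for a gene when the peak list named that gene as the one with the nearest transcription start site. This gave 95 of the 56036 H3K27me2 peaks on chromosomes 1 to 19 and X. They fell to 28 of the 51 genes, and 23 genes had no peak.

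H3K27me2 was mapped by ULI-NChIP-seq, which sequences nucleosomal DNA precipitated from native, MNase-digested chromatin of few cells, in late-pronuclear (PN5) zygotes without polar bodies. The zygotes came from C57BL/6J eggs fertilized in vitro with PWK/PhJ sperm, so that reads could be assigned to the maternal or the paternal genome by strain variants. The mothers of the Ezh2m+/p+ (control) zygotes were Ezh2 fl/fl, and those of the Ezh2m-/p+ zygotes were Ezh2 fl/fl with Gdf9-Cre, a transgene driven by an oocyte promoter that deletes the floxed exon in growing oocytes. The fathers carried intact Ezh2 in both groups, and all zygotes had the same strain cross. Each genotype had 1 H3K27me2 library and 1 input library made from pooled zygotes, so differences between genotypes could not be set against replicate spread and no test was made.

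H3K27me2 is placed by Polycomb repressive complex 2, whose catalytic subunit is EZH2 or EZH1, and is the step before H3K27me3, the mark of Polycomb silencing. Classical imprints are DNA methylation marks set in one germline at differentially methylated regions (DMRs), which then direct expression of nearby genes from one parental allele. Most of them are set in the oocyte, often over the promoter of a noncoding RNA or of a paternally expressed gene. The expressed allele given here is the one known from later embryonic, placental or brain tissue, and it was not measured in these zygotes.

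The peak lists held 5744 maternal and 17863 paternal peaks in Ezh2m+/p+ zygotes and 9606 maternal and 22823 paternal peaks in Ezh2m-/p+ zygotes. They held no read counts, so the depth behind a single peak is unknown. In the authors' table of coverage, reads of the maternal genome covered 23.4% to 33.3% of the 11 chromosomes that carry these genes in Ezh2m+/p+ zygotes, and reads of the paternal genome covered 1.25% to 3.47%. In Ezh2m-/p+ zygotes the corresponding ranges were 32.7% to 45.1% and 1.91% to 5.05%. Chromosome 7, which carries 20 of the 51 genes, had the lowest maternal coverage of these chromosomes in both genotypes. The genotype of each list rests on its name, since a peak list cannot show the deletion in Ezh2. The part that depth played in the counts below was not tested.

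In Ezh2m+/p+ zygotes, 15 of the 51 imprinted genes (29.4%, exact binomial 95% interval 17.5% to 43.8%) had a maternal peak and 12 (23.5%, 12.8% to 37.5%) had a paternal peak. The counts in Ezh2m-/p+ zygotes were also 15 and 12. Of all 38183 genes of the annotation, the share with a maternal peak was 9.56% in the control and 13.9% in Ezh2m-/p+ zygotes, and the share with a paternal peak was 13.4% and 15.7%. The intervals of the imprinted genes held the background share in both paternal lists and lay above it in both maternal lists. With only peaks of a fold over 10, 6 genes (11.8%, 4.44% to 23.9%) kept a maternal peak in Ezh2m+/p+ zygotes, beside 4.79% of all genes, so that the interval then held the background share. In Ezh2m-/p+ zygotes 14 genes (27.5%, 15.9% to 41.7%) kept one, beside 11.5% of all genes, and the interval stayed above it. With each list limited to its 5744 peaks of highest fold, genes with a paternal peak fell to 4 and 3, beside 7.08% and 7.34% of all genes. Without distal intergenic peaks, 11 genes (21.6%, 11.3% to 35.3%) had a paternal peak in Ezh2m+/p+ zygotes. That interval lay above the share of all genes, 10.3%. In Ezh2m-/p+ zygotes 9 genes (17.6%, 8.4% to 30.9%) had one, and the interval held the share, 12.5%. Over the 4 lists together, 28 imprinted genes (54.9%, 40.3% to 68.9%) had a peak, beside 29.9% of all genes and 46.3% of protein-coding genes, and 43 of the 51 were protein-coding. These intervals cover counting error only and treat genes as independent, although genes of one domain are neighbours.

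Imprinted genes were also longer than most genes, with a median of 36.3 kb against 6.75 kb, and a larger share of long genes had a peak. Of the 20 imprinted genes longer than 50 kb, 16 (80.0%) had a peak, beside 67.8% of all genes of that length. Of the 31 shorter ones, 12 (38.7%) had a peak, beside 23.5% of all shorter genes.

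**Figure D1:**
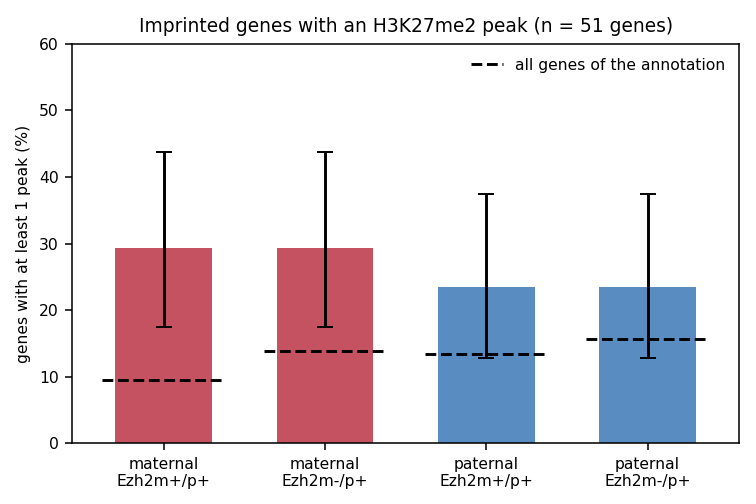
Share of the 51 imprinted genes with at least 1 H3K27me2 peak (bars, in percent, with exact binomial 95% intervals) in each of the 4 peak lists, with the share of all annotated genes as dashed lines. The bars stood at 29.4% in both maternal lists and at 23.5% in both paternal lists, with 1 library per genotype.

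The 23 genes without a peak in any list included several of the best-known imprinted genes. Neither H19, a maternally expressed noncoding RNA, nor Igf2, the paternally expressed growth factor gene that shares its enhancers, had a peak, and none lay in their domain. The same held for Gnas, which encodes a G protein alpha subunit, with its antisense transcript Nespas, and for Impact, a regulator of translation. The others were the noncoding RNA genes Meg3 and Rian, the retrotransposon-derived genes Rtl1 and Peg10, the zinc-finger genes Peg3 and Zim1, and Sgce, Mcts2, Nnat and Zrsr1. In the Kcnq1 domain they were Ascl2, Tssc4, Nap1l4 and Cdkn1c, which encodes an inhibitor of the cell cycle. In the Snrpn-Ube3a domain they were Ndn, Magel2, Peg12 and Ube3a, a ubiquitin ligase gene expressed from the maternal allele in neurons.

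Of the 28 genes with a peak, 13 had one in a single list, 9 in 2 lists, 1 in 3 lists and 5 in all 4. Of the 11400 genes of the annotation with a peak, 44.0%, 41.1%, 9.68% and 5.18% had one in 1, 2, 3 and 4 lists. The 5 imprinted genes were Grb10, Trappc9, Peg13, Inpp5f and Atp10a. Peaks were found only in maternal lists for 13 genes, only in paternal lists for 8, and in lists of both genomes for 7 (46.4%, 28.6% and 25.0% of the 28), beside 41.5%, 40.1% and 18.5% of all genes with a peak. Of the 16 domains with a peak of a listed gene, 12 had one in the Ezh2m+/p+ maternal list and 9 in each of the other lists.

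**Figure D2:**
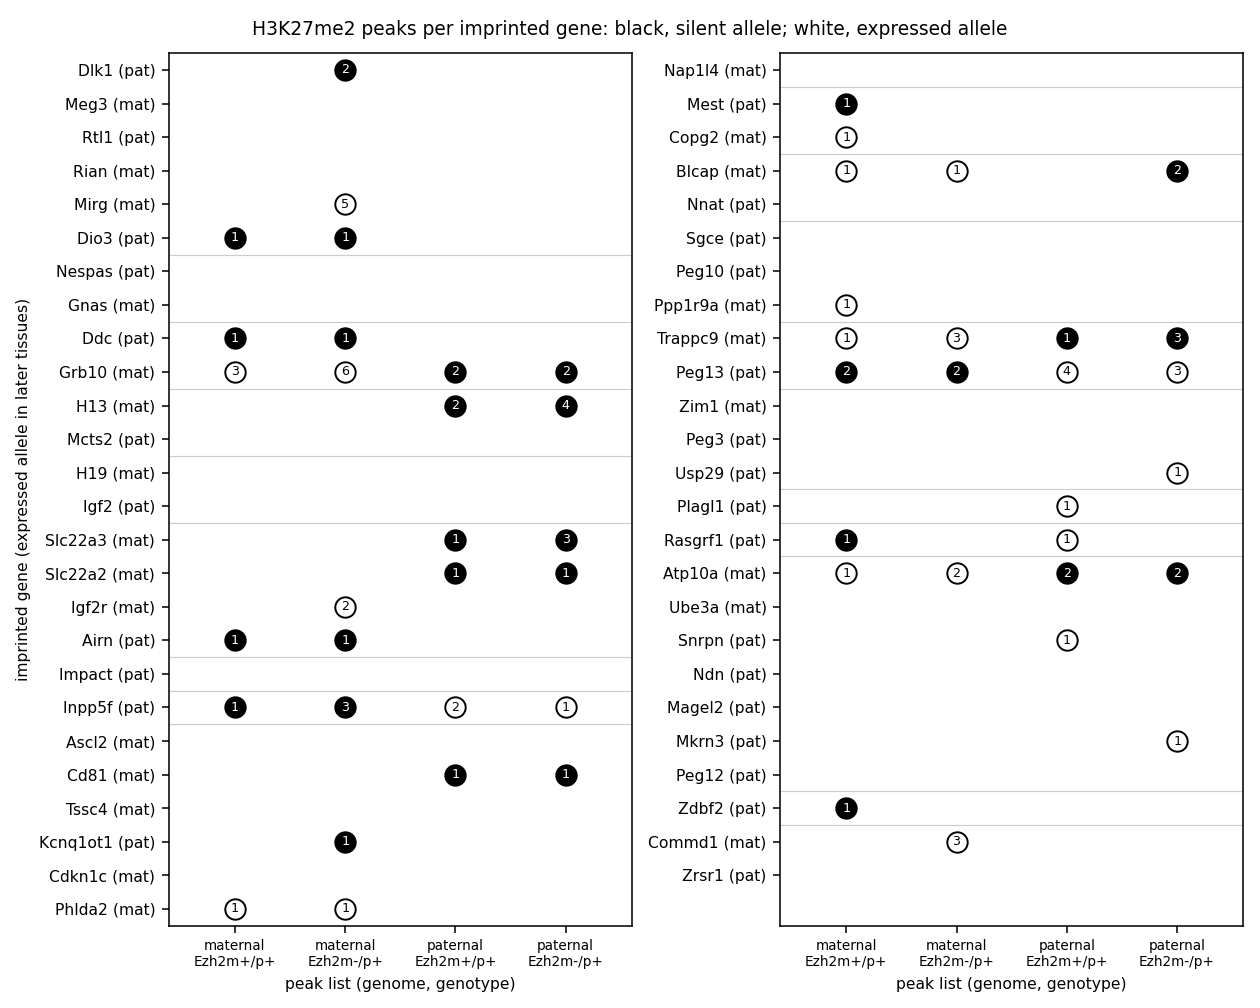
Number of H3K27me2 peaks of each of the 51 imprinted genes (rows, grouped by domain, with the known expressed allele in brackets) in the 4 peak lists (columns). Black circles mark peaks on the allele that is silent in later tissues and white circles those on the expressed allele. The 23 empty rows are the genes with no peak, and 5 rows are filled in all 4 columns.

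The relation of the peaks to the expressed allele was mixed. In Ezh2m+/p+ zygotes, 15 of the 51 genes (29.4%, 17.5% to 43.8%) had a peak on the allele that is silent in later tissues and 12 (23.5%, 12.8% to 37.5%) had one on the expressed allele, with 6 genes in both sets. The counts were again 15, 12 and 6 in Ezh2m-/p+ zygotes. The intervals of the silent and the expressed allele overlapped widely in both genotypes. Among genes with a peak on the silent allele, 7 were maternally and 8 paternally expressed genes in Ezh2m+/p+ zygotes, and 8 and 7 in Ezh2m-/p+ zygotes. Restricted to peaks that overlapped the gene itself or its flanks of 3 kb, the order turned in Ezh2m+/p+ zygotes, with 9 genes on the silent and 12 on the expressed allele.

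Some genes had peaks on the silent allele only. Those of H13, Slc22a3, Slc22a2 and Cd81, all expressed from the maternal allele, lay in the paternal lists alone in both genotypes. Those of Dio3, Ddc and Airn, all expressed from the paternal allele, lay in the maternal lists alone in both genotypes. The opposite pattern, peaks on the expressed allele only and in both genotypes, was found for Phlda2, a maternally expressed gene that limits placental growth. In each genotype, 9 genes had peaks on the silent allele only and 6 on the expressed allele only. Both patterns depended on the assignment of peaks. Within the gene and its flanks of 3 kb, the first held only for H13, Slc22a3 and Airn, and the opposite one for Phlda2 and Usp29.

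No peak of an imprinted gene overlapped a peak of the other parental genome of the same zygotes (0 of 95). This was rare in the lists as a whole, where 0.418% of the maternal peaks of Ezh2m+/p+ zygotes and 0.416% of those of Ezh2m-/p+ zygotes overlapped a paternal peak. The closest approach was in Trappc9 of Ezh2m+/p+ zygotes, where a paternal and a maternal peak lay 202 bp apart. Trappc9 encodes a subunit of a vesicle-tethering complex.

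Between genotypes, 10 imprinted genes had a maternal peak in both and 9 had a paternal peak in both, which compares with 5.54% and 11.6% of all genes. In the maternal genome 5 more genes had a peak in Ezh2m+/p+ zygotes alone and 5 in Ezh2m-/p+ zygotes alone, beside 4.03% and 8.33% of all genes, and in the paternal genome 3 and 3, beside 1.78% and 4.05%. Of the imprinted genes with a control peak, 10 of 15 in the maternal and 9 of 12 in the paternal genome also had one in Ezh2m-/p+ zygotes, beside 57.9% and 86.8% of all such genes. Peaks overlapped by position less often, in the imprinted genes and in the lists as a whole. Of the 18 maternal control peaks, 1 (5.56%, 0.141% to 27.3%) overlapped an Ezh2m-/p+ peak, beside 9.47% of all maternal peaks. Of the 19 paternal control peaks, 7 (36.8%, 16.3% to 61.6%) overlapped one, beside 66.1% of all paternal peaks and 60.6% of those no longer than the longest peak of an imprinted gene. Counted from the Ezh2m-/p+ side, 1 of 34 maternal peaks and 7 of 24 paternal peaks overlapped, beside 5.78% and 45.7% of all.

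The shared maternal peak lay in Grb10, which encodes an adaptor that dampens insulin and growth factor signalling and is expressed from the maternal allele in most tissues and from the paternal allele in neurons. It spanned chr11:11963201-11966799 with a fold over input of 5.7 in Ezh2m+/p+ zygotes and chr11:11962801-11964999 with a fold of 40.5 in Ezh2m-/p+ zygotes, both in intron 4 (mm10). The overlap covered just under 50% of the control peak, and the fold of that peak was below 10, so no maternal peak was shared under either of those stricter limits. A paternal peak was also shared in Grb10, at chr11:11936201-11937799 with a fold of 144 in Ezh2m+/p+ zygotes and at chr11:11936201-11937999 with a fold of 17.1 in Ezh2m-/p+ zygotes. The lists called this one a promoter, but it lay 99.6 kb and 99.4 kb from the Grb10 start site in RefSeq. The middle 200 bases of each overlap (plus strand, GRCm38, from the RefSeq genome, CpG sites in capitals) are shown because they are the places in this gene where the mark was found in both genotypes. The maternal window is chr11:11964000-11964199 and the paternal window is chr11:11936900-11937099.
Grb10 maternal overlap: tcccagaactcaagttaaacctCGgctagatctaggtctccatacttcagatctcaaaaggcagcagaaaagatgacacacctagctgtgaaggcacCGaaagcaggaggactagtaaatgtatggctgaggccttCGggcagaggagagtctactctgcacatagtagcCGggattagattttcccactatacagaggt
Grb10 paternal overlap: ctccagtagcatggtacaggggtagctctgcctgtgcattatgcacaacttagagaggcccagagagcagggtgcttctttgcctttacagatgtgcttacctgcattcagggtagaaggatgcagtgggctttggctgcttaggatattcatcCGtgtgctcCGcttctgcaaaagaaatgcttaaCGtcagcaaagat
They held 4 and 3 CpG sites, and neither was masked as a repeat.

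Grb10 had 13 peaks in all, the most of any of these genes. Another 2 maternal peaks of Ezh2m+/p+ zygotes lay in intron 1 (fold 5.53) and 41.2 kb upstream of the gene (fold 7.54). In Ezh2m-/p+ zygotes the other 5 maternal peaks had folds between 5.45 and 30.6, and 3 of them lay upstream of the gene. The remaining paternal peaks, 1 in each genotype, lay 73.0 kb and 114 kb upstream. The adjoining Ddc gene, which encodes a decarboxylase of dopamine and serotonin synthesis and is imprinted in the heart, had a maternal peak in intron 6 in Ezh2m+/p+ zygotes (fold 9.38) and one 5.7 kb upstream in Ezh2m-/p+ zygotes (fold 23.7).

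The largest difference between genotypes in the number of peaks inside a domain was in the Dlk1-Dio3 domain on chromosome 12, and it lay in the maternal genome. This domain pairs the paternally expressed genes Dlk1, a regulator of progenitor differentiation, Rtl1 and Dio3, which encodes a thyroid hormone-inactivating enzyme, with the maternally expressed noncoding RNA genes Meg3, Rian and Mirg. Its DMR is methylated in sperm. From the first base of Dlk1 to the last base of Dio3, 829 kb, the maternal list held 2 peaks in Ezh2m+/p+ zygotes and 15 in Ezh2m-/p+ zygotes, covering 0.458% and 6.2% of the domain. Neither genotype had a paternal peak there, but the stretch without paternal peaks reached well past the domain, over 5.87 Mb in Ezh2m+/p+ and 5.6 Mb in Ezh2m-/p+ zygotes. Over the whole of chromosome 12, the maternal peaks numbered 267 and 580 and covered 0.686% and 1.28%, a smaller difference. The domain was picked for its large difference, so this comparison cannot show a local effect. The difference inside the domain rests on 1 library per genotype and was not tested.

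Of the 15 peaks, 1 was given to Dlk1 and 5 to Mirg, the host of a large microRNA cluster. Another 4 were given to single microRNA genes (Mir493, Mir3544, Mir341 and Mir543) and 5 to 3110009F21Rik, names taken after the values were seen. The Dlk1 peak, chr12:109453601-109455999 with a fold of 31.4, began 1.1 kb inside the gene. Mirg had peaks 3.0 kb upstream of its start site (fold 47.4) and inside the gene (fold 26.8), and 3 further peaks 85.5 kb to 170.5 kb downstream. By position, 2 of the 15 peaks also fell within Rtl1 or its flanks and 1 within Rian or its flanks, while Meg3 had none. A second maternal peak of Dlk1 lay 140.7 kb upstream of it, outside the domain. Dio3 had a maternal peak 28.9 kb downstream in Ezh2m+/p+ zygotes and one 37.9 kb downstream in Ezh2m-/p+ zygotes, which did not overlap. The middle of the Dlk1 peak is shown as the peak closest to the RefSeq start of a listed gene in this domain (chr12:109454700-109454899, GRCm38, plus strand).
Dlk1 peak: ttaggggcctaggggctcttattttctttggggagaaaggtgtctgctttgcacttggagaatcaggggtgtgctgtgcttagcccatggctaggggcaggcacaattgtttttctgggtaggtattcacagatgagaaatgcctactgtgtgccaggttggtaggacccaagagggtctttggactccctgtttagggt
It held 0 CpG sites, and 12.0% of it was masked as repeat.

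**Figure D3:**
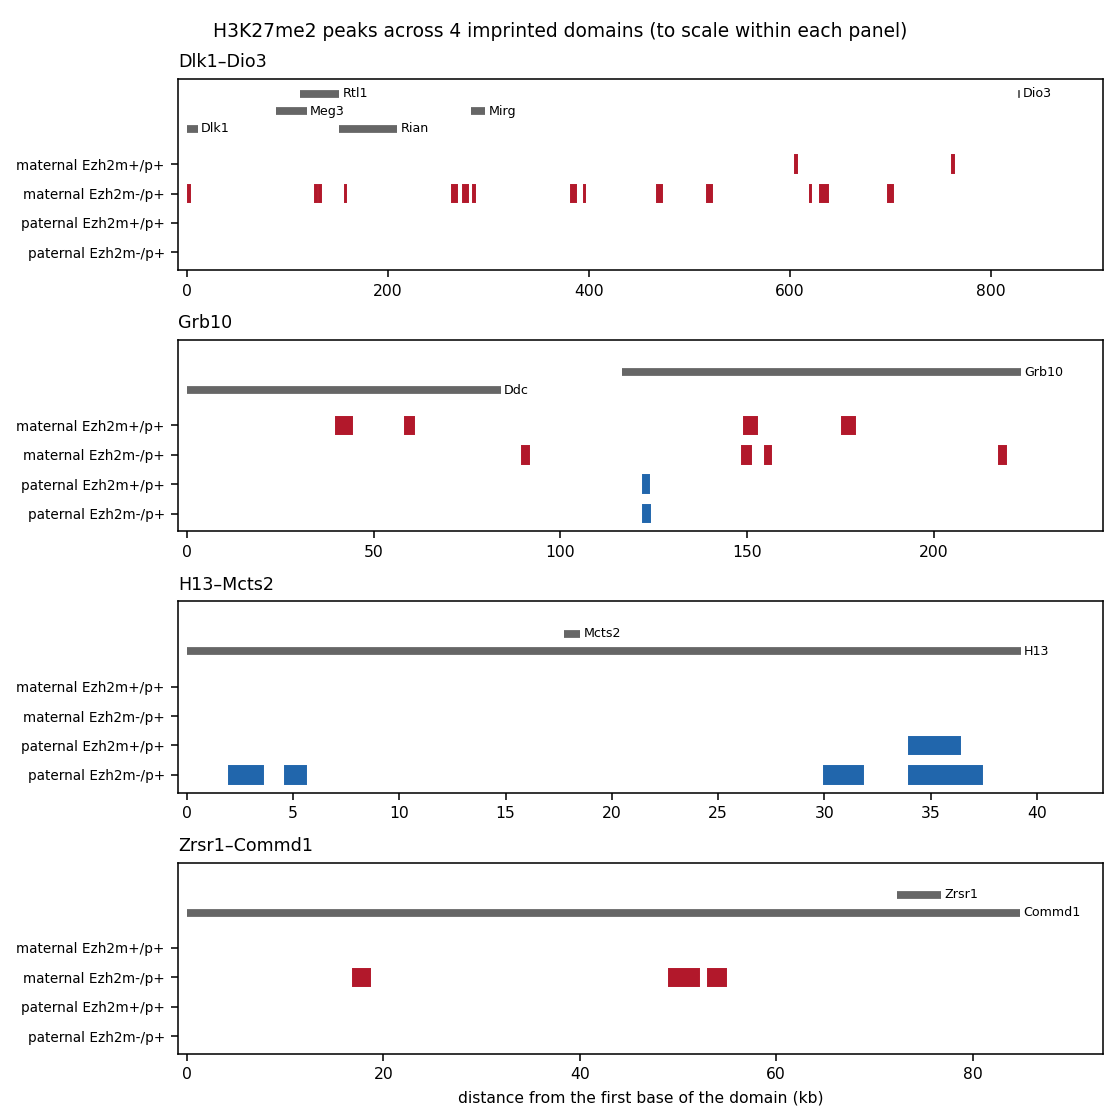
H3K27me2 peaks of the 4 lists (coloured blocks, maternal red and paternal blue) across 4 imprinted domains, with the genes as grey bars and the distance from the first base of the domain in kb on each horizontal axis. The Dlk1-Dio3 panel has 15 blocks, some of them nearly touching, in the maternal Ezh2m-/p+ row, 2 in the maternal Ezh2m+/p+ row and none in the paternal rows.

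Another 3 maternal peaks found only in Ezh2m-/p+ zygotes lay in Commd1, which takes part in copper handling and is expressed more from the maternal allele in brain. They had folds of 23.7, 36.7 and 24.5 and covered 7.78% of the gene's span. The other lists had no peak there, and Zrsr1, the paternally expressed retrogene in an intron of Commd1, had none. H13, which encodes a signal peptide peptidase, gave the corresponding case in the paternal genome, its silent allele for the full-length transcript. Inside the gene, Ezh2m+/p+ zygotes had 1 paternal peak and Ezh2m-/p+ zygotes had 4, covering 6.11% and 19.9% of it, and neither had a maternal peak. The peak at the 3′ end of H13 was in both genotypes, with folds of 10.5 and 8.37. The further Ezh2m+/p+ peak, 6.0 kb upstream of H13, overlapped an Ezh2m-/p+ peak that was given to another gene.

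Inpp5f, which encodes an inositol phosphatase and has a paternally expressed variant in brain, had the only peak that covered the RefSeq start site of one of these genes. It was a maternal peak of Ezh2m-/p+ zygotes at chr7:128610401-128613999 with a fold of 7.17. The maternal peak of Ezh2m+/p+ zygotes lay in intron 2 (fold 34.8) and did not overlap it. In the paternal genome, a peak in intron 1 was found in both genotypes, at chr7:128621001-128623799 with a fold of 12.0 in Ezh2m+/p+ zygotes and at chr7:128618001-128623399 with a fold of 205 in Ezh2m-/p+ zygotes. RefSeq gives 2 starts here, the first base of the gene at 128611181 and, 184 bases further in, the start in its promoter table at 128611365, and the peak covered both. The 250 bases before the second (chr7:128611115-128611364, GRCm38, plus strand) and the middle of the shared intron peak (chr7:128622100-128622299) are shown to set the sequence at the start site beside that of the shared peak.
Inpp5f before the promoter-table start: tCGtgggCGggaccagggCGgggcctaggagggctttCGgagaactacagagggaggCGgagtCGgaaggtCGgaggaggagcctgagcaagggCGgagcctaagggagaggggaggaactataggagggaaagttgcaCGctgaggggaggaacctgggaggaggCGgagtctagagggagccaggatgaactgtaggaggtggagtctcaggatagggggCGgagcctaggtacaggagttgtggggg
Inpp5f shared intron peak: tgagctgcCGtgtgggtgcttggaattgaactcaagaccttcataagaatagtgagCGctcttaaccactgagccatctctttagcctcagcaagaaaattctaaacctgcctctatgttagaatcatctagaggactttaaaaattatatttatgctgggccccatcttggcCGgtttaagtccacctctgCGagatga
The first held 11 CpG sites at 63.6% GC and the second 4 at 44.0% GC, with 0.0% and 55.0% of their bases masked as repeats. A further 2 maternal peaks of Ezh2m-/p+ zygotes lay 38.6 kb and 32.8 kb upstream of Inpp5f, and a further paternal peak of Ezh2m+/p+ zygotes lay 40.6 kb upstream.

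Peg13, a paternally expressed noncoding RNA gene inside an intron of Trappc9, and Trappc9, expressed more from the maternal allele in brain, had 11 and 8 peaks, and each had peaks in every list. All 11 peaks given to Peg13 lay outside Peg13 and inside introns of Trappc9. The nearest of them was a paternal peak of Ezh2m+/p+ zygotes 2.2 kb downstream of Peg13 (fold 72.2), and the farthest lay 117.3 kb upstream. Of the 4 paternal peaks of Ezh2m+/p+ zygotes and the 3 of Ezh2m-/p+ zygotes, 1 was shared, at chr15:72775801-72777399 with a fold of 96.3 and chr15:72775801-72777599 with a fold of 19.7. Trappc9 had a shared paternal peak, called intron 12 in one list and exon 13 in the other, at chr15:72942801-72944599 with a fold of 150 in Ezh2m+/p+ zygotes and chr15:72941601-72944399 with a fold of 6.4 in Ezh2m-/p+ zygotes. In Ezh2m-/p+ zygotes a further paternal peak lay 0.6 kb from the Trappc9 start site (fold 11.8). Its maternal peaks, 1 in Ezh2m+/p+ zygotes (fold 34.8) and 3 in Ezh2m-/p+ zygotes (folds 20.7 to 39.0), did not overlap between genotypes. The middle of each shared peak (chr15:72776500-72776699 and chr15:72943500-72943699, GRCm38, plus strand) is shown for comparison with those of Grb10.
Peg13 shared peak: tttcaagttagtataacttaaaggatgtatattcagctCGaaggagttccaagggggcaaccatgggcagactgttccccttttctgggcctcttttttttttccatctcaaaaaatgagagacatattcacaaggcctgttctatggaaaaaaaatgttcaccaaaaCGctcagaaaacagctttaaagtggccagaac
Trappc9 shared peak: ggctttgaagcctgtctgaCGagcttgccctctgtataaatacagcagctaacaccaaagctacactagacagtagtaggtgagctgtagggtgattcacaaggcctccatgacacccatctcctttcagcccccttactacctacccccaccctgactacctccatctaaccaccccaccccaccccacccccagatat
These held 2 and 1 CpG sites, and 28.0% and 16.5% of their bases were masked as repeats.

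In the Igf2r-Airn domain the maternal and paternal peaks fell to different genes. Airn, the paternally expressed antisense RNA that silences its neighbours, had a maternal peak in intron 1 in Ezh2m+/p+ zygotes (fold 5.19) and one in exon 2 in Ezh2m-/p+ zygotes (fold 20.7). Igf2r, the maternally expressed receptor that clears IGF2, had maternal peaks in Ezh2m-/p+ zygotes alone, in exon 13 (fold 35.2) and 16.7 kb from its start site (fold 22.2). The latter peak also lay in Airn, which overlaps Igf2r on the other strand, and the mark has no strand. The organic cation transporter genes Slc22a3 and Slc22a2, imprinted in placenta, had paternal peaks alone. In intron 1 of Slc22a3, a peak of Ezh2m+/p+ zygotes at chr17:12491801-12494999 (fold 12.0) overlapped 2 of the 3 peaks of Ezh2m-/p+ zygotes, which had folds of 6.3, 13.8 and 7.39. The paternal peaks upstream of Slc22a2, with folds of 36.1 and 63.0, lay 802 bp apart and did not overlap.

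The Kcnq1 domain, with 7 listed genes, had 5 peaks given to them, of 12 peaks of any gene in the span. Kcnq1ot1, the paternally expressed RNA that silences the domain, had a maternal peak in its body in Ezh2m-/p+ zygotes alone (fold 28.3), 12.1 kb from its start site. Phlda2 had a maternal peak 2.1 kb downstream in Ezh2m+/p+ zygotes (fold 9.05) and one 1.9 kb upstream in Ezh2m-/p+ zygotes (fold 6.12). Cd81, which encodes a membrane protein of the tetraspanin family, had a paternal peak 5.2 kb upstream in Ezh2m+/p+ zygotes (fold 36.1) and one 9.8 kb upstream in Ezh2m-/p+ zygotes (fold 5.91). Both lay in introns of another gene.

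Across the Snrpn-Ube3a domain, 3810 kb long, peaks were sparse, with at most 0.126% of it covered in any list. Atp10a, a lipid transporter gene whose imprinting is disputed, had 7 peaks, of which 5 lay inside the gene and 2 lay 300.1 kb and 332.3 kb upstream. Its maternal peaks had folds of 5.7 in Ezh2m+/p+ zygotes and of 24.5 and 26.0 in Ezh2m-/p+ zygotes. Snrpn had 1 paternal peak in intron 2 in Ezh2m+/p+ zygotes (fold 48.1), and Mkrn3 had 1 paternal peak 10.4 kb upstream in Ezh2m-/p+ zygotes (fold 63.0).

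The remaining genes had 1 to 4 peaks each. Mest, which encodes a hydrolase-like protein and is expressed from the paternal allele, and Copg2, a coatomer subunit gene, had 1 maternal peak each in Ezh2m+/p+ zygotes, with folds of 14.4 and 5.36. The Mest peak lay 54.9 kb downstream of Mest in an intron of Copg2. Blcap, imprinted in brain, had a maternal peak in each genotype, 2.4 kb and 19.4 kb downstream, and 2 paternal peaks in Ezh2m-/p+ zygotes, 45.2 kb and 65.8 kb upstream. Rasgrf1, a Ras-activating factor gene, had in Ezh2m+/p+ zygotes a maternal peak in exon 11 (fold 6.7) and a paternal one in exon 8 (fold 36.1). By position, Rasgrf1 also held maternal peaks given to Ctsh, 1 in Ezh2m+/p+ zygotes (fold 5.36) and 2 in Ezh2m-/p+ zygotes (folds 26.0 and 35.2), of which the latter overlapped the control peak. A further paternal peak of Ezh2m+/p+ zygotes inside the gene (fold 36.1) was also given to Ctsh. Plagl1, a growth-regulating zinc-finger gene, had a paternal peak in Ezh2m+/p+ zygotes (fold 84.3) that was called a promoter but lay 32.4 kb from its RefSeq start site. Usp29, which neighbours Peg3, had a paternal peak in intron 3 in Ezh2m-/p+ zygotes (fold 7.88). A paternal peak given to Mir3099 also lay in Usp29 in both genotypes, with folds of 48.1 and 78.8. Ppp1r9a, an actin-binding protein gene, had a maternal peak in intron 2 (fold 6.37), and Zdbf2 a maternal peak 23.0 kb downstream (fold 34.8), both in Ezh2m+/p+ zygotes.

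Of these genes, 13 are known to have a germline DMR at their start, and no list had a peak within 5 kb of the start sites used. For genes with several RefSeq starts, the most downstream one was taken. Peg10, Nespas, Impact and Peg13 had none in the promoter table, so the outer end of the gene was taken. Whether each site used lies inside its DMR was not checked. Within 5 kb, 7 of all 51 genes (13.7%) and 19.9% of all annotated genes had a peak in some list, and within 10 kb the DMR start sites had one in 2 of 13 cases. The nearest peaks lay 6.08 kb from Nnat and 6.92 kb from Peg13, and the others between 10.5 kb (Airn) and 272 kb (Peg10) away. All 13 DMRs are ones methylated on the maternal allele. Over all 51 genes, 2 (3.92%) had a peak within 1 kb of the RefSeq start site, beside 9.79% of all genes, and 14 (27.5%) had one within 10 kb, beside 29.0%.

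**Figure D4:**
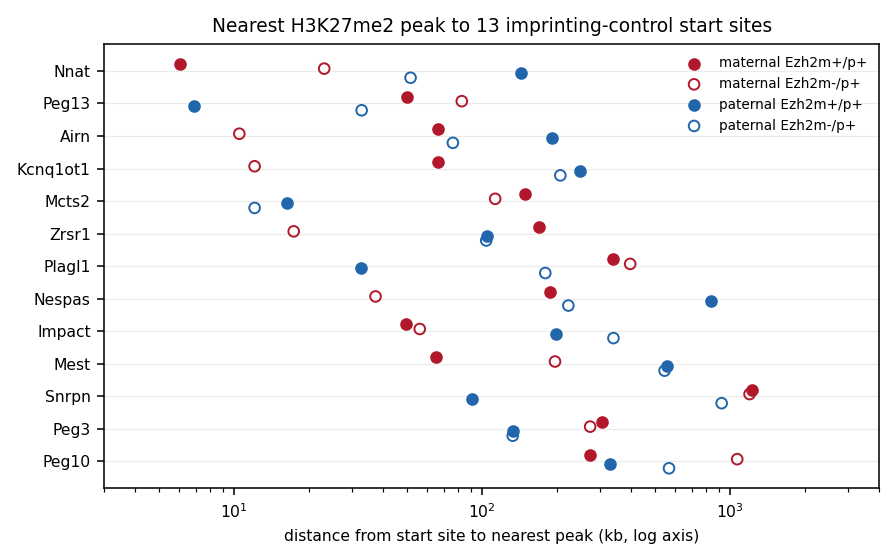
Distance in kb (log axis) from the start sites used for 13 imprinted genes with a germline DMR at their start to the nearest H3K27me2 peak of each list (maternal red, paternal blue, filled for Ezh2m+/p+ and open for Ezh2m-/p+). All points lie beyond 5 kb, with the closest at 6.08 kb (Nnat).

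Of the 95 peaks, 49 (51.6%) touched the gene to which they were given, 31 lay upstream of it and 15 downstream. The lists called 13 (13.7%, 7.49% to 22.3%) promoter peaks, beside 16.9% of all peaks, and 26 (27.4%, 18.7% to 37.5%) distal intergenic, beside 39.0% of all peaks. Of the 13 promoter calls, 7 lay within 3 kb of the RefSeq start site of the gene, and the others referred to other transcripts. Another 42 were intronic, 10 exonic, 3 in a UTR and 1 just downstream of a gene. For 18 of the 95, the intron or exon called in the list belonged to another gene or to a transcript without a matched gene name. Some of these peaks, in Atp10a and Commd1, also lay inside the gene to which they were given.

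By sequence, the peaks of imprinted genes were poor in CpG like the lists they came from. The median ratio of observed to expected CpG was between 0.167 and 0.177 in the 4 lists, beside 0.172 to 0.179 for all peaks, and the highest value was 0.514, in the Inpp5f peak over the start site. The median GC content was 46.6% and 46.8% in the maternal lists of Ezh2m+/p+ and Ezh2m-/p+ zygotes and 45.6% and 49.1% in the paternal lists, beside 45.5%, 45.6%, 44.7% and 44.0% for all peaks. The hexamer TGCCGC, which the imprint-protecting protein ZFP57 binds when methylated, was searched on both strands in the central 1000 bases of each peak. It was found in 1 of 18 and 1 of 34 maternal peaks and in 3 of 19 and 4 of 24 paternal peaks (Ezh2m+/p+ and Ezh2m-/p+), beside 7.66%, 8.4%, 7.99% and 7.4% of all peaks. In the 300-base promoters of the RefSeq table, which held 41 of the 51 genes, it stood in 14 of their 58 promoters (24.1%), beside 11.6% of all promoters. The hexamer holds a CpG, and the median number of CpG sites was 15.5 in those 58 promoters and 7.0 in all promoters.

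The folds of these peaks had maternal medians of 7.12 in the control and 24.5 in Ezh2m-/p+ zygotes, beside 7.37 and 23.7 for all peaks. The paternal medians were 36.1 and 9.85, beside 36.1 and 15.8 for all peaks. Fold values recurred: 36.1 was the fold of 3350 of the 17863 Ezh2m+/p+ paternal peaks (18.8%) and of 7 of the 19 that belonged to imprinted genes. Like 36.1, the folds 48.1, 72.2, 96.3 and 144 of these genes in that list lay near whole multiples of 12.0, also a listed fold. Whether high folds there rest on few reads was not tested. The lists hold no read counts of the input, so it is not known whether a recurring fold is a measured ratio or a fixed value. The folds are therefore given as listed, and their sizes were not compared between lists. A fold limit of 10 and a ranking by fold were still applied to each list. In the ranking, peaks of equal fold were ordered by length. The median length of the maternal peaks was 2999 bp in the control and 2199 bp in Ezh2m-/p+ zygotes, and that of the paternal peaks was 1599 bp and 1799 bp.

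**Figure D5:**
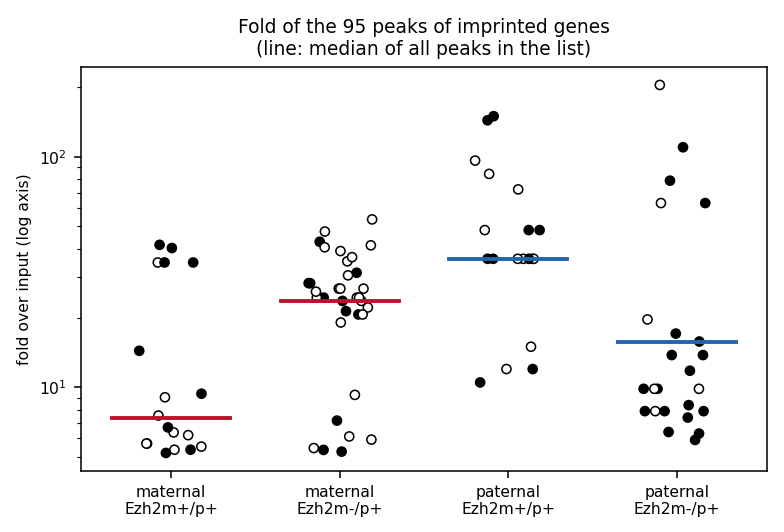
Fold over input (log axis) of the 95 peaks of imprinted genes in each list, in black on the silent and in white on the expressed allele, with the median of all peaks of the list as a line. The points run from 5.19 to 205, and those at 36.1 in the paternal Ezh2m+/p+ list show a recurring value.

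Of 14 genes for factors that set or keep imprints, 3 had a peak, all in maternal lists. The share with a peak in some list was 29.9% of all genes and 46.3% of protein-coding genes. Dnmt3a, which encodes a methyltransferase that sets imprints, had 1 maternal peak in Ezh2m+/p+ zygotes (fold 42.9) and 2 in Ezh2m-/p+ zygotes. Dnmt1, which encodes the maintenance methyltransferase, and Dppa3, whose product protects maternal methylation in the zygote, had 1 maternal peak each in Ezh2m-/p+ zygotes (folds 42.8 and 22.2). Of 30 genes that neighbour the imprinted domains, 19 had a peak, again beside 29.9% of all and 46.3% of protein-coding genes. Gene length was not matched in these comparisons. Cobl, an actin nucleator gene next to Grb10, had 13 maternal peaks in each genotype and 7 and 6 paternal peaks, more than Grb10 itself in every list. Ins2, next to Igf2, had no maternal peak, but 4 paternal peaks in the control and 3 in Ezh2m-/p+ zygotes.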

How the data were processed

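H3K27me2 ULI-NChIP-seq libraries of Ezh2m+/p+ and Ezh2m-/p+ zygotes were analysed from the deposited peak lists, 1 per genotype and parental genome, with 1 library per genotype. Reads had been trimmed (Trimmomatic 0.38), aligned to mm10 (Bowtie2) and cleared of duplicates (Picard) by the authors, who then split reads by parental genome with SNPsplit, called peaks against input with SICER and annotated them with ChIPseeker. SNPsplit can place only reads that cover a strain variant, so regions without variants carry no signal. The deposited fold is listed by the authors as the ratio of H3K27me2 to input reads, and it is not known whether every value is a measured ratio. The smallest listed fold was 5.0 and the smallest length 999 bp. The deposited coverage is a fraction of each chromosome, given here as a percentage, and no scaling to read number is described.

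Peaks on chromosomes 1 to 19 and X were taken as listed. The 51 genes were matched to Entrez identifiers in the RefSeq table of GRCm38.p6, 1 of them (Nespas) by a synonym. The members, gene lists and measures were chosen with earlier results of these data known. The background was the 38183 RefSeq genes that GENCODE vM21 also holds, which included 99.4% of the 11472 identifiers in the lists. Every peak of every gene with a peak was to be named or counted, and genes without a peak named once. Overlap meant at least 1 bp. Exact binomial 95% intervals were computed, and they cover counting error only. Because a genotype has 1 library, no test between genotypes was made. Sequences were read from the RefSeq genome and promoter table. A genome window was shown for some of the peaks shared between genotypes or near a start site. The windows of the shared H13 and Slc22a3 peaks were left out. So were peaks within 3 kb of the start site in Trappc9, Phlda2, Mirg and H13. The overlap and assignment steps were tested on simulated data. The alternatives tried were limits of 10 on the fold and of 2000 bp on the length, lists of equal size, assignment by gene body, removal of distal intergenic peaks, a reciprocal overlap of 50% and broadly imprinted genes only. Software: Python 3.11.15, with the packages scipy 1.17.1, pandas 2.3.3, matplotlib 3.10.9 and numpy 2.4.6.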

Additional observations from a re-analysis of the deposited data

How the results depend on the processing

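Over 7 alternatives, 43 of 66 counts stayed within 1.5 times the value given above and 23 moved further. With only peaks of a fold over 10, genes with a maternal peak fell to 6 in Ezh2m+/p+ zygotes, those with one in both genotypes to 4, shared maternal peaks to 0 of 6, and genes with a peak on the expressed allele in Ezh2m+/p+ zygotes to 6. With only peaks over 2000 bp, 4 genes kept a paternal peak in Ezh2m+/p+ zygotes, 5 had a maternal and 3 a paternal peak in both genotypes, 3 of 4 paternal peaks were shared (beside 7 of 19 above), and 9 and 7 genes had a peak on the silent and the expressed allele in Ezh2m+/p+ zygotes. With lists cut to 5744 peaks of highest fold, genes with a paternal peak numbered 4 in the control and 3 in Ezh2m-/p+ zygotes, 0 had one in both, 0 of 5 paternal peaks were shared, and 7 genes had a peak on the silent allele in Ezh2m-/p+ zygotes, beside 8 on the expressed allele. With assignment by gene body and flanks of 3 kb, 2 of 17 maternal peaks were shared, and 9 genes had a peak on the silent allele in Ezh2m+/p+ zygotes. With a reciprocal overlap of 50%, 0 of 18 maternal and 4 of 19 paternal peaks were shared. With the 33 genes imprinted in most tissues, 6 had a peak on the silent and 4 on the expressed allele in Ezh2m+/p+ zygotes, and 6 and 6 in Ezh2m-/p+ zygotes. Removing distal intergenic peaks moved no count by more than 1.5 times.

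No paired analysis was possible because each genotype had 1 library and no result came from a test. Over both parental genomes, the study lists a greater depth for the H3K27me2 library and the input of Ezh2m+/p+ zygotes than for those of Ezh2m-/p+ zygotes. Read depth in each parental genome is unknown, so the lists do not show whether a gene without a peak lay below detection.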
